A study of Mus musculus with 48 samples.

Results

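The genes described here are 10 transcription factors that set blood cell identity, namely Spi1, Gata1, Gata2, Cebpa, Cebpb, Runx1, Myb, Ikzf1, Gfi1 and Lmo2. They were taken by gene symbol from a deposited table of 55487 mouse genes, and each symbol matched 1 Ensembl gene. The rule used names and no values, but the 10 names were put together with earlier results of these data known. The study made 48 libraries from 24 clones of Ba/F3, a mouse line known as pro-B that needs interleukin 3 to grow. Each clone gave 1 poly(A) RNA-seq library and 1 ribosome footprint library from the same lysate, and footprints are the 28 to 30 nt pieces of transcript left under a ribosome after nuclease treatment. The title of the series places the work among ribosomal protein lesions of cancer and names Rps15 mutations of chronic lymphocytic leukaemia.

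There were 8 genotypes with 3 clones each. They were WT, Rpl5+/-, Rpl11+/- and Rpl22+/- (1 allele lost), Rpl22-/- (both alleles lost), and 3 point mutants, namely Rpl10 R98S and, in Rps15, P131S and H137Y. The genotype labels write each point mutation on both alleles, as R98S/R98S, P131S/P131S and H137Y/H137Y, while the titles of the P131S RNA libraries name it once. Rpl5, Rpl11, Rpl22 and Rpl10 encode proteins of the large ribosomal subunit and Rps15 a protein of the small subunit. All groups, WT included, shared the cell line, 10% serum, 1 ng/ml interleukin 3 and 0.1 mg/ml cycloheximide for 1 min before harvest. The replicates are separate clones of 1 cell line, so the p-values below measure spread between clones, and the 7 comparisons with WT share the same 3 WT clones.

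Lineage transcription factors act as a network of activators and repressors. PU.1, the product of Spi1, and the C/EBP proteins drive myeloid genes, GATA1 and GATA2 act in erythroid, megakaryocyte, mast cell and progenitor programmes, and PU.1 and GATA1 bind and oppose each other. LMO2 is a bridging protein without DNA binding of its own that joins GATA factors to TAL1 and LDB1. RUNX1 and MYB serve progenitors of many lineages, and Ikaros, the product of Ikzf1, is needed for lymphoid development and is often lost in lymphoid leukaemia. GFI1 is a transcriptional repressor that acts within the neutrophil and lymphoid branches.

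Positions are given for GRCm38.p6, from RefSeq, which carries the GRCm38 build named in the submitters' processing notes. Spi1 lies at chr2:91082374-91115759, Gata1 at chrX:7959260-7976663, Gata2 at chr6:88193891-88207032, Cebpa at chr7:35119293-35121928 and Cebpb at chr2:167688915-167690432. Runx1 lies at chr16:92601466-92826074, Myb at chr10:21124930-21160984, Ikzf1 at chr11:11684962-11772930, Gfi1 at chr5:107716655-107725805 and Lmo2 at chr2:103957903-103981878. An annotated long non-coding RNA overlaps the span of Gata2, Runx1, Ikzf1 and Lmo2, and 2 of them overlap Gata1. The sources used here do not say whether reads were assigned by strand, so reads of such a pair may not be told apart. The other 5 genes overlap no annotated gene.

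RefSeq start-site windows (250 bases before to 50 after a start, GRCm38.p6) were found for 8 of the 10 genes, 12 windows in all, and none was found for Spi1 and Lmo2. The 4 windows below belong to genes with a called RNA change and start at the outer edge of the gene, and only the 250 bases before the start are shown, 5′ to 3′ on the strand of the gene. They are Gata2 (chr6:88193641-88193890, plus strand), Runx1 at its distal start (chr16:92826075-92826324, minus strand), Myb (chr10:21160985-21161234, minus strand) and Gfi1 (chr5:107725806-107726055, minus strand). Capitals mark matches on either strand to short motifs of 4 of the factors themselves. For the GATA proteins the letters searched were AGATAA, along with AGATAG, then TGATAA, and finally TGATAG. For RUNX proteins they were ACCACA, along with ACCGCA, and for PU.1 they were GAGGAA. For MYB either CAACTG, or the related CAACGG, was searched.
Gata2: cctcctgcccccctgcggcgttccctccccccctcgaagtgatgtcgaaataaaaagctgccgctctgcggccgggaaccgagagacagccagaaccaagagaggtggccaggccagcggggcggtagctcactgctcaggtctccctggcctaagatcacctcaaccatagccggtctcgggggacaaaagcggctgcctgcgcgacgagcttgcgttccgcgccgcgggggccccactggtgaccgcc
Runx1 distal: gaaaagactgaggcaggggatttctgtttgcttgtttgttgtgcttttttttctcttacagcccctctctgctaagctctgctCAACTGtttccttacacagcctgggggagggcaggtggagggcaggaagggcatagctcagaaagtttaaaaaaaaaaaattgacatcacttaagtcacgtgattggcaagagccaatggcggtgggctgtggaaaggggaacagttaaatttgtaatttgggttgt
Myb: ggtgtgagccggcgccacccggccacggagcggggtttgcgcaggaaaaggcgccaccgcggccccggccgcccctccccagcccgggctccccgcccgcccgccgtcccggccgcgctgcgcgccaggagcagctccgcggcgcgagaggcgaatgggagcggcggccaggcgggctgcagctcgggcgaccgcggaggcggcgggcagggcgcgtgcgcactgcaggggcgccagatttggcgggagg
Gfi1: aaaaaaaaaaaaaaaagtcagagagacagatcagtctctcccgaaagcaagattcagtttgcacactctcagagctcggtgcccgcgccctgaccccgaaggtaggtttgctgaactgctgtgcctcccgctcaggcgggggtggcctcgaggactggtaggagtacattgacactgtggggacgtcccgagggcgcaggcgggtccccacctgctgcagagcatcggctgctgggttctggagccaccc
These stretches differ in base composition, with 67.2% G and C before Gata2, 45.6% before the distal Runx1 start, 81.2% before Myb and 59.2% before Gfi1, and the median over all 32851 windows was 52.4%. The distal Runx1 stretch holds 1 MYB match, and the other 3 hold no match to any of the 4 motifs.

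Just after the distal Runx1 start the window holds 2 RUNX matches, at bases 29 and 37 counted from the start as 1, which is shown because the footprint to RNA ratio of Runx1 passed the F test over the genotypes both with and without a clone term, as described below (Ikzf1 passed with it only, and the Runx1 call was lost without a count filter).
Runx1 pair of RUNX matches (chr16:92826029-92826050, minus strand): aacaACCACAgaACCACAagtt
Among all windows 22.4% hold a RUNX match and 2.86% hold at least 2. Of the 12 windows of the factors, 0 hold a GATA match, 1 a RUNX match, 2 a PU.1 match (Gata1 and the proximal Runx1 start) and 3 a MYB match (Cebpa, Cebpb and distal Runx1), beside 29.8%, 22.4%, 28.3% and 18.1% of all windows. No word of letters belongs to more than 1 motif on either strand, though neighbouring matches may overlap, and a match says only that these letters are present. A link between the RUNX matches and the ratio of Runx1 was not tested.

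RNA libraries held 13029073 to 38258559 counts and footprint libraries 15598994 to 72044439, and the shallowest footprint library was that of Rpl22+/- clone 60. Levels are given as CPM, the counts of a gene scaled to a common library total, on library sizes scaled by trimmed means of M values. A limit of 3 counts corresponds to at most 0.227 CPM in RNA and 0.19 CPM in footprints, which covers counting error only. As a check of the labels, Rpl5 RNA was 1534 to 1589 CPM in the Rpl5+/- clones against 2283 to 2338 in WT, and Rpl11 RNA was 1008 to 1150 CPM in the Rpl11+/- clones against 1665 to 1686. Rpl22 footprints were 274 and 317 CPM in Rpl22-/- clones 649 and 776 but 1544 in Rpl22-/- clone 30, which lies within the 1429 to 1596 of Rpl22+/-, below the 2350 to 2786 of WT. Results on Rpl22-/- that are printed below are therefore also given without clone 30, the library labelled Rpl22-/- whose Rpl22 footprints were at the heterozygous level. Rps15 RNA differed between clones of 1 label, being 817, 875 and 1829 CPM in the H137Y clones 6, 2 and 16 and 907, 1825 and 1935 in the P131S clones 24, 63 and 20, against 1433 to 1455 in WT. The level of an edited gene does not check a point mutation.

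The defining B-lineage genes were at or near 0 in these cells. Of 18 B-lineage markers, 15 stayed under 1 CPM in every RNA library, among them Pax5, Ebf1, Rag1, Vpreb1 and Igll1, and Dntt, Il7r and Ms4a1 had no count in any. The highest level of Pax5, the factor that fixes B-cell identity, was 0.119 CPM, and Ebf1 did not pass 0.0335 CPM. Cd79a reached 9.81 CPM in 1 library or more, Cd79b, the other signal chain of the B-cell receptor, was found at 3.35 to 9.91 CPM and Cd72 at 7.48 to 11.95 CPM. Of 24 myeloid markers, 16 reached 10 CPM in at least 1 library, and 6 of the 17 erythroid and megakaryocyte markers did.

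Cebpa, which encodes the C/EBP factor of early granulocyte development, was not detected. It had 0 counts in all 24 RNA libraries and 1 count in each of 2 footprint libraries, WT clone 1 and Rpl10 R98S clone A30. It was not tested at any level. Gfi1 was near the limit of detection, with 0 to 39 RNA counts and 0 to 39 footprint counts per library, and passed the filter on low counts in RNA only. It did so through the Rps15 clones, since the 5 RNA libraries with 10 or more counts were all Rps15 mutants and no library of WT or another mutant genotype exceeded 7, so its test was conditional on being high there. The other 8 genes had 201 or more RNA counts and 34 or more footprint counts in every library and were tested at all 3 levels. Levels are compared only between clones for 1 gene, never between genes, since transcript lengths were not used.

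**Figure D1:**
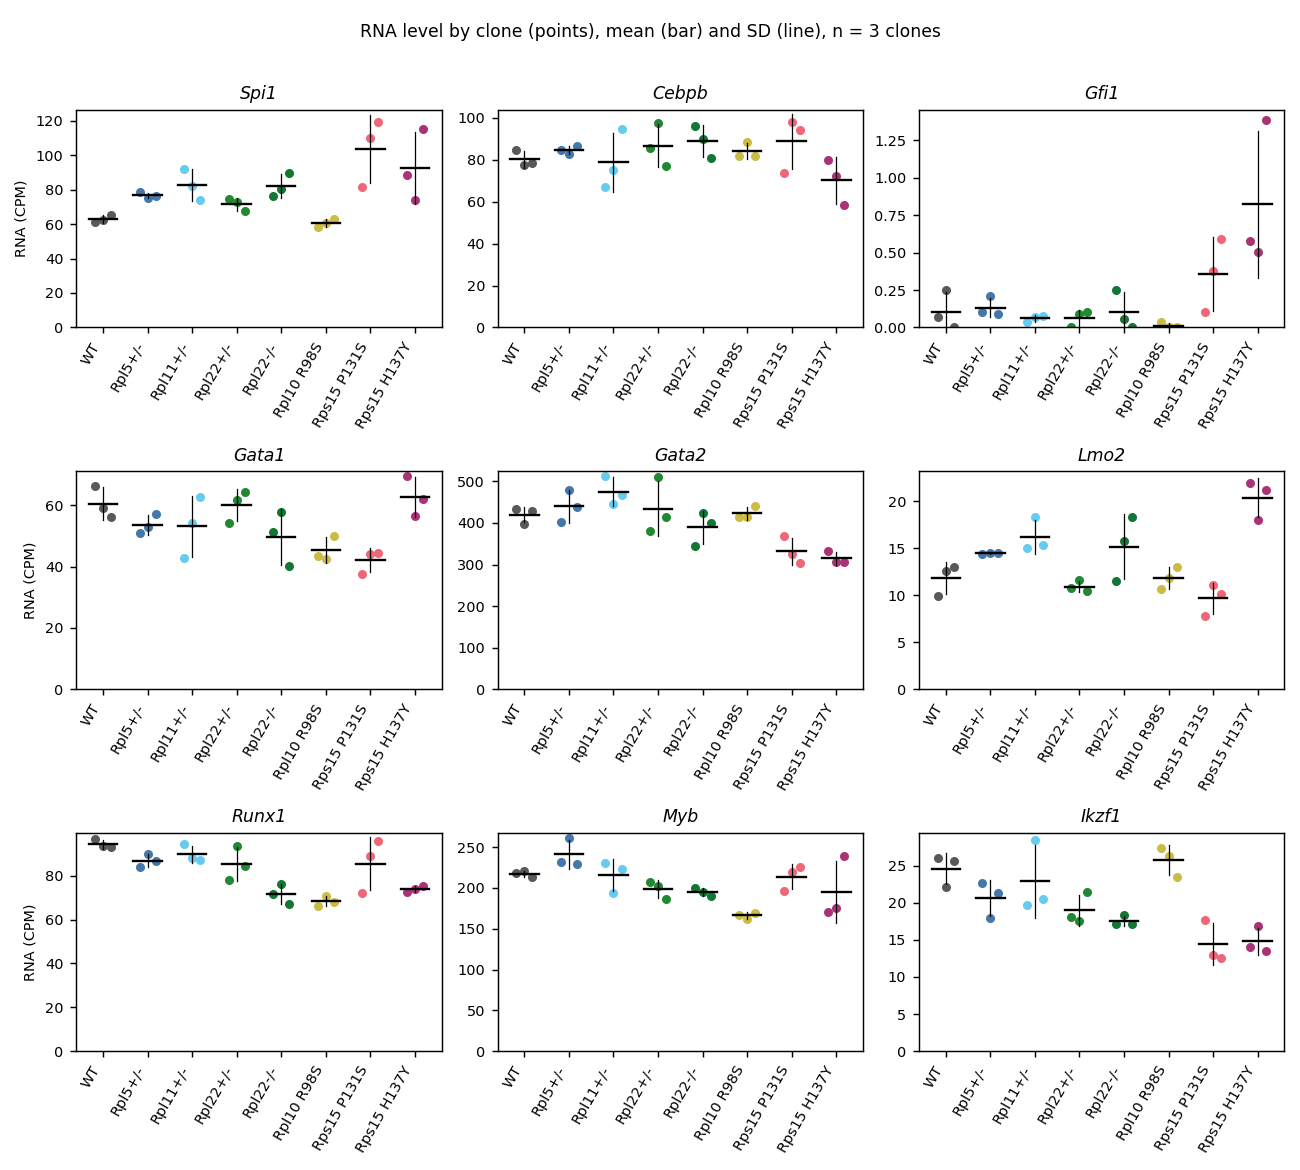
RNA level (CPM, linear axis from 0) of the 9 genes tested in RNA, by genotype. Points are clones, bars the mean and lines the SD of 3 clones. Spi1 is highest in the 2 Rps15 genotypes, Ikzf1 lowest there, and Lmo2 and Gfi1 are highest in Rps15 H137Y.

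Of the 9 genes tested in RNA, 8 (7 of 8 without Gfi1) differed over the 8 genotypes (edgeR quasi-likelihood F test, Benjamini-Hochberg adjusted p from 4.97e-05 for Lmo2 to 0.00472 for Gata1), and Cebpb did not pass (adjusted p = 0.223 in edgeR). Over all genes tested, 65.6% passed the same test, so the share among the factors is to be read against a high background. Against WT, RNA changes were called for 0 of 9 factors in Rpl5+/- (1.04% of all genes tested), 1 in Rpl11+/- (11.8% of all genes, 5.73% higher and 6.05% lower; 0 factors without clone 22 or 406 or any WT clone, 2 without clone 414) and 0 in Rpl22+/- (3.9% of all genes). In Rpl5+/- and in Rpl22+/- edgeR gave 1 factor an unadjusted p under 0.05, DESeq2 and limma voom called none, and a fit of only the 2 genotypes called 1 in each. Rpl22-/- had 2 called factors (5.27% of all genes, 3.8% lower; 1 when any 1 clone was left out) and Rpl10 R98S 3 (12.9%, 6.03% lower; 1 without clone A30), all of them lower. Rps15 P131S had 4 (47% of all genes), 1 higher (23.7%) and 3 lower (23.4%), and Rps15 H137Y had 6 (41%), 3 higher (21%) and 3 lower (20%), or 5 of 8 with 2 higher when Gfi1 is left aside. The median log2 change of the 9 factors, Gfi1 included, was -0.14 in P131S and -0.16 in H137Y, beside -0.01 and 0.01 over all genes tested.

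Spi1, which encodes the myeloid and B-lineage factor PU.1, rose in both Rps15 genotypes. Its RNA level was 61.0, 62.6 and 65.2 CPM in WT clones 1, 2 and 3. In Rps15 P131S clones 20, 24 and 63 it was 81.5, 109.9 and 119 CPM, and in Rps15 H137Y clones 2, 16 and 6 it was 74.0, 88.5 and 115 CPM. All 6 Rps15 clones lay above all 3 WT clones, and 3 of them (P131S clone 20 and H137Y clones 2 and 16) lay within the range of the other mutants. Relative to WT this was a log2 change of 0.72 in P131S (SE 0.13, edgeR adjusted p = 0.000158) and 0.56 in H137Y (SE 0.13, edgeR adjusted p = 0.00181), or 1.64-fold and 1.47-fold higher. Without H137Y clone 6 the H137Y value was 0.37 (edgeR adjusted p = 0.0158). In the other genotypes Spi1 ranged from 58.2 to 92.0 CPM. Its clones lay above WT also in Rpl5+/-, Rpl11+/-, Rpl22+/- and Rpl22-/-, with log2 values of 0.28, 0.39, 0.18 and 0.38 that did not pass (edgeR adjusted p = 0.312, 0.0544, 0.555 and 0.103; in Rpl22-/- without clone 30, 0.43 and 0.145). Clones that do not overlap those of WT were common among all genes tested in RNA, at 33.4%, 32.9%, 30% and 32.3% in these 4 genotypes, 46.3% in R98S, 57.2% in P131S and 49.8% in H137Y. By mean RNA the order from high to low was P131S, H137Y, Rpl11+/-, Rpl22-/-, Rpl5+/-, Rpl22+/-, WT and R98S, and 5 of the 7 pairs of neighbours overlapped in their clones.

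The summed RNA of 24 myeloid markers was highest in the Rps15 clones. It was 363 to 476 CPM in WT and 301 to 333 CPM in Rpl10 R98S, where Spi1 was 58.2 to 62.8 CPM. In P131S clones 20, 24 and 63 the markers summed to 826, 1652 and 3292 CPM, in the order of their Spi1 levels, and in H137Y clones 2, 16 and 6 to 835, 1289 and 3634 CPM, again in the order of Spi1. The other genotypes did not follow that order. Rpl11+/- clones had 73.8 to 92.0 CPM of Spi1 beside a marker sum of 394.5 to 556 CPM, and Rpl5+/- clones had 75.3 to 78.5 CPM of Spi1 beside a sum of 515 to 792 CPM. In Rpl22+/- and Rpl22-/- the sums were 393 to 473 and 429.7 to 623 CPM. The highest single levels were those of the alarmins S100a8 and S100a9 and of Ltf, which encodes lactoferrin, with maxima of 982, 1456 and 537 CPM. Of the surface receptor genes on the list, Csf3r, Csf2ra and Cd14 stayed under 1 CPM in every library, while Csf1r, Itgam and Fcgr3 had maxima of 3.24, 6.855 and 8.67 CPM. In bulk RNA a larger share of cells with a marker and more marker RNA per cell cannot be told apart, and the part of either in the Spi1 change was not tested.

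**Figure D2:**
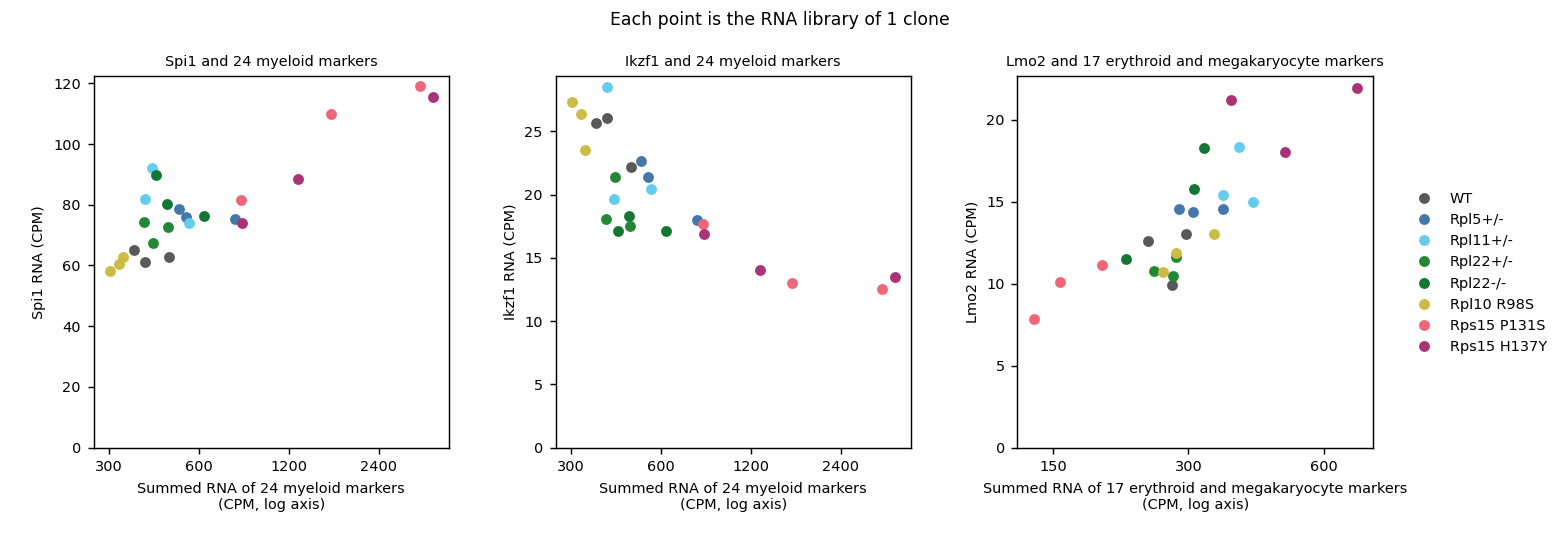
RNA level (CPM, linear axis from 0) of Spi1, Ikzf1 and Lmo2 against the summed RNA of marker lists (CPM, log axis), with 1 point for the RNA library of each clone, coloured by genotype. Spi1 runs from 58.2 CPM at the low end of the myeloid sum to 119 CPM near its high end, Ikzf1 is 23.5 to 27.3 CPM in the R98S clones, which have the lowest myeloid sums, and 12.55 and 13.5 CPM in the 2 clones with the highest, and Lmo2 is lowest, at 7.83 CPM, in the P131S clone with the lowest erythroid and megakaryocyte sum, 136 CPM.

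Gfi1, which encodes a transcriptional repressor that acts within the granulocyte lineage, was called higher in Rps15 H137Y on few counts. Its RNA counts were 2, 7 and 0 in WT clones 1, 2 and 3, 13, 20 and 39 in H137Y clones 2, 16 and 6, and 3, 10 and 15 in P131S clones 20, 24 and 63. In CPM this is 0 to 0.249 in WT, 0.501 to 1.39 in H137Y and 0.1 to 0.594 in P131S. The 3 H137Y clones lay above all WT clones, while 1 P131S clone lay within the WT range. The fitted log2 change in H137Y was 2.89 (SE 0.82, edgeR adjusted p = 0.00729; 4.35 without WT clone 2) and 1.68 in P131S (SE 0.87), which did not pass (edgeR adjusted p = 0.117). In Rpl10 R98S 2 of 3 clones had 0 counts. Since Gfi1 was tested only because these clones are high, the call is a description and supports no count over the factors.

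Cebpb, which encodes a C/EBP factor of the inflammatory and late granulocyte programme, had overlapping clones in all 7 comparisons with WT in RNA. WT clones held 77.4 to 84.6 CPM, and the lowest and highest clones of all were 58.2 CPM in H137Y clone 6 and 98.1 CPM in P131S clone 24. The difference between P131S and H137Y was 0.34 on the log2 scale (SE 0.13, edgeR adjusted p = 0.0521). It is the only member of the C/EBP family among the 10 with counts in every library.

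Gata1, the erythroid and megakaryocyte GATA factor, fell in Rps15 P131S and in Rpl10 R98S, with no call in Rps15 H137Y. Its RNA was 66.5, 59.2 and 56.1 CPM in WT clones 1, 2 and 3, 37.6, 44.2 and 44.5 CPM in P131S clones 20, 24 and 63, and 43.5, 42.6 and 50.2 CPM in R98S clones A29, A30 and A34. In H137Y clones 16, 2 and 6 it was 69.5, 56.7 and 62.1 CPM. All P131S and R98S clones lay below the WT clones, and the H137Y clones overlapped them. On the log2 scale Gata1 fell by 0.53 in P131S (SE 0.13, edgeR adjusted p = 0.00249) and by 0.42 in R98S (SE 0.13, edgeR adjusted p = 0.0381), against a change of 0.05 in H137Y (SE 0.13, edgeR adjusted p = 0.784). The R98S call was lost when any 1 of WT clones 1, 2 and 3 or R98S clones A29 and A30 was left out, with log2 changes of -0.35 to -0.47 and edgeR adjusted p of 0.0591 to 0.148, and without a count filter (edgeR adjusted p = 0.0633). In the direct comparison of the 2 Rps15 genotypes, in which 2 of 9 factors were called, both lower in P131S (25.2% of all genes tested, 12.6% lower), Gata1 was lower in P131S by a log2 difference of -0.58 (SE 0.13, edgeR adjusted p = 0.00285). Without H137Y clone 6 or P131S clone 20 that comparison called 4 factors. By mean RNA, H137Y was the highest and P131S the lowest of the 8 genotypes, and all 7 pairs of neighbours in the order overlapped.

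Gata2, the GATA factor of progenitors and mast cells, fell in both Rps15 genotypes. RNA was 432, 398.5 and 428 CPM in WT clones 1, 2 and 3, 367, 325 and 303 CPM in P131S clones 20, 24 and 63, and 332, 307 and 305 CPM in H137Y clones 16, 2 and 6. The 6 Rps15 clones lay below the 3 WT clones. Relative to WT, P131S had a log2 change of -0.34 (SE 0.10, edgeR adjusted p = 0.00742) and H137Y one of -0.42 (SE 0.10, edgeR adjusted p = 0.00195). The 2 Rps15 genotypes differed from each other by 0.08 (SE 0.10), which did not pass (edgeR adjusted p = 0.629). In the 5 other mutant genotypes Gata2 was 344 to 513 CPM and no change was called, and only the Rpl11+/- clones, at 445 to 513 CPM, all lay above WT.

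Lmo2, the bridging partner of GATA and TAL1 factors, separated the 2 Rps15 genotypes. Its RNA was 9.91, 12.6 and 13.0 CPM in WT clones 1, 2 and 3, 21.9, 18.04 and 21.2 CPM in H137Y clones 16, 2 and 6, and 7.83, 11.1 and 10.1 CPM in P131S clones 20, 24 and 63. The H137Y clones lay above all WT and all P131S clones (29.8% of all genes tested had clones apart between the Rps15 genotypes), and the P131S clones overlapped WT. The log2 change was 0.79 in H137Y (SE 0.15, edgeR adjusted p = 0.000265), or 1.72-fold, and -0.29 in P131S (SE 0.15), which did not pass (edgeR adjusted p = 0.119). The direct difference, P131S minus H137Y, was -1.08 (SE 0.15, edgeR adjusted p = 3.47e-05), or 2.11-fold lower in P131S. Lmo2 also rose in Rpl11+/-, to 15.0, 18.3 and 15.4 CPM in clones 22, 406 and 414, a log2 change of 0.46 (SE 0.15, edgeR adjusted p = 0.0493). That call was lost without Rpl11+/- clone 22 or 406 or any 1 of the 3 WT clones, with log2 changes of 0.34 to 0.53 and edgeR adjusted p of 0.0726 to 0.206, and with no count filter (edgeR adjusted p = 0.0572) or only the 2 genotypes in the fit (edgeR adjusted p = 0.0722).

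The summed RNA of the erythroid and megakaryocyte markers followed the same split. It was 244 to 297 CPM in WT, 136, 193 and 155 CPM in P131S clones 20, 24 and 63, and 709.8, 491 and 374 CPM in H137Y clones 16, 2 and 6. The P131S clones lay below and the H137Y clones above WT. The Rpl11+/- clones, at 359 to 417 CPM, also lay above WT and overlapped the H137Y clones. Clones of the remaining mutant genotypes overlapped WT. Among the red cell genes, Alas2 and Slc4a1 stayed under 1 CPM in every library, but globin RNA was present. Hba-a1, an alpha globin gene, was 9.74 to 228 CPM over all libraries, with 129.8 CPM ± 99.4 in H137Y and 15.8 ± 9.41 in P131S (P131S minus H137Y -3.04, edgeR adjusted p = 0.00196). Hbb-bt, a beta globin gene, rose from 1.78 CPM ± 1.42 in WT to 38.6 ± 19.3 in H137Y (log2 change 4.45, edgeR adjusted p = 0.00889). Footprints were also assigned to Hba-a2, at 376.5 CPM ± 283 in H137Y and 54.9 ± 37.4 in WT (2.78, edgeR adjusted p = 0.0119), although its RNA did not pass 0.26 CPM, and Hba-a1 and Hba-a2 are near-identical copies between which reads may be split. Itga2b, the megakaryocyte integrin, was 104 to 351 CPM. The part of these markers in the Gata1 and Lmo2 results was not tested.

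Runx1, a core binding factor of progenitors, fell in Rpl22-/-, Rpl10 R98S and Rps15 H137Y. RNA was 96.7, 93.5 and 93.0 CPM in WT clones 1, 2 and 3, 71.9, 76.3 and 67.3 CPM in Rpl22-/- clones 30, 649 and 776, 66.2, 70.9 and 68.0 CPM in R98S clones A29, A30 and A34, and 72.8, 73.8 and 75.2 CPM in H137Y clones 16, 2 and 6. These 9 clones lay between 66.2 and 76.3 CPM, below all 3 WT clones. Against WT the log2 change of Runx1 was -0.39 in Rpl22-/- (SE 0.08, edgeR adjusted p = 0.00553), -0.47 in R98S (SE 0.08, edgeR adjusted p = 0.000901) and -0.35 in H137Y (SE 0.08, edgeR adjusted p = 0.00156). Without Rpl22-/- clone 30 the log2 change was -0.39 (edgeR adjusted p = 0.0269). Rps15 P131S, at 72.0, 89.1 and 95.7 CPM in clones 20, 24 and 63, overlapped WT (log2 change -0.14, SE 0.08, edgeR adjusted p = 0.158). The direct difference between P131S and H137Y was 0.21 (SE 0.08, edgeR adjusted p = 0.0631) and did not pass.

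Myb, an activator that keeps progenitors dividing, was called lower in Rpl10 R98S and in no other of the 7 comparisons with WT. RNA was 218, 221 and 214 CPM in WT clones 1, 2 and 3 and 167, 162 and 169.8 CPM in R98S clones A29, A30 and A34, with no overlap. The log2 change was -0.39 (SE 0.10, edgeR adjusted p = 0.0117), and without R98S clone A30 it was -0.37 with an edgeR adjusted p of 0.0531. In the other genotypes Myb ranged from 170.3 CPM in H137Y clone 16 to 262 CPM in Rpl5+/- clone 76. The 3 Rpl5+/- clones lay above WT, at 229.9 to 262 CPM, but their log2 value of 0.15 did not pass (edgeR adjusted p = 0.5). All Rpl22+/- clones, at 186 to 207 CPM, and all Rpl22-/- clones, at 190 to 200 CPM, lay below WT without a call. In Rpl22-/- the log2 value was -0.16 (edgeR adjusted p = 0.435), and -0.18 without clone 30 (edgeR adjusted p = 0.527). Whether R98S differs from the other mutant genotypes in Myb was not tested.

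Ikzf1, which encodes the lymphoid regulator Ikaros, fell in both Rps15 genotypes and was the factor that was also called in footprints. Its RNA was 26.0, 22.2 and 25.7 CPM in WT clones 1, 2 and 3, 17.7, 13.0 and 12.55 CPM in P131S clones 20, 24 and 63, and 14.01, 16.9 and 13.5 CPM in H137Y clones 16, 2 and 6. The 6 Rps15 clones lay below all WT clones, and 5 of them below every clone of any other genotype, the lowest of which held 17.1 CPM. The log2 change was -0.77 in P131S (SE 0.14, edgeR adjusted p = 0.000188) and -0.73 in H137Y (SE 0.14, edgeR adjusted p = 0.000362), that is 1.71-fold and 1.66-fold lower. Rpl22-/- clones 30, 649 and 776 had 17.1, 18.3 and 17.2 CPM, with a log2 change of -0.49 (SE 0.14, edgeR adjusted p = 0.0496). That call was lost when any 1 of the 6 clones compared was left out, with log2 changes of -0.45 to -0.56 and edgeR adjusted p of 0.0644 to 0.168 (0.162 without Rpl22-/- clone 30), and under another scaling of the libraries (edgeR adjusted p = 0.0509). Rpl22+/- clones, at 17.6 to 21.4 CPM, also lay below WT, without passing the test (log2 value -0.37, SE 0.14, edgeR adjusted p = 0.174). Between Rpl22-/- and Rpl22+/- 0 of 9 factors were called (0.0078% of all genes tested), with 2 factors at an unadjusted p under 0.05 in edgeR and 0 called by DESeq2 and limma voom.

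**Figure D3:**
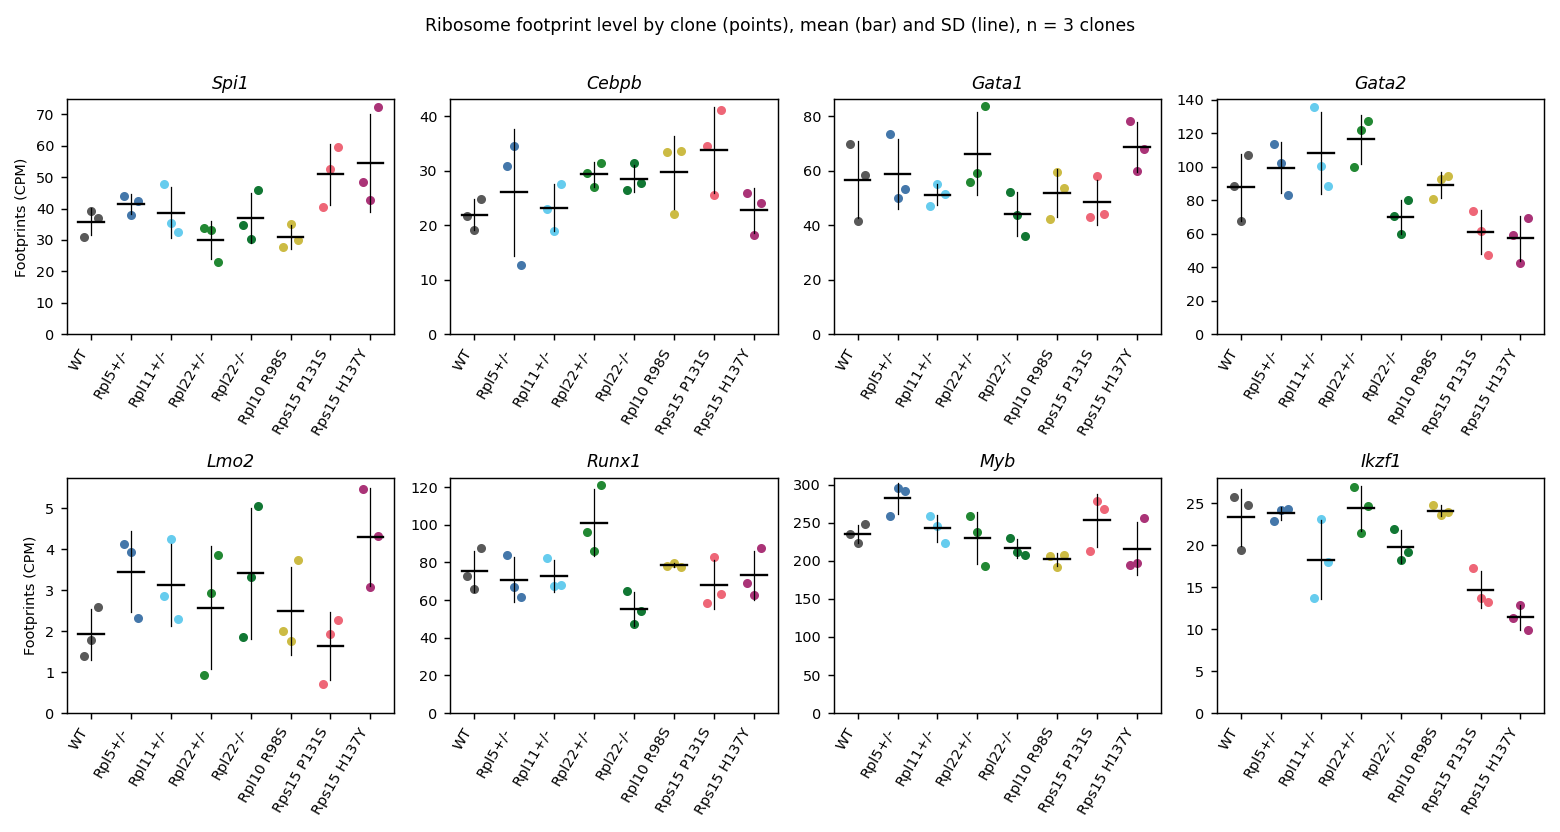
Ribosome footprint level (CPM, linear axis from 0) of the 8 genes tested in footprints, by genotype. Points are clones, bars the mean and lines the SD of 3 clones. The Ikzf1 footprints of the 6 Rps15 clones lie at 9.93 to 17.2 CPM, below the WT clones at 19.4 to 25.8 CPM.

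In footprints, 4 of the 8 tested factors differed over the 8 genotypes (edgeR adjusted p = 0.0224 for Spi1, 0.00437 for Gata2, 0.0303 for Runx1 and 0.000582 for Ikzf1), and 24.6% of all genes tested did. Against WT, 1 factor was called in Rps15 P131S (16.7% of all genes tested, 8.28% lower) and 1 in Rps15 H137Y (11.7%, 6.44% lower), in both cases Ikzf1, which was lower. The H137Y count was 2 without H137Y clone 2, H137Y clone 6 or WT clone 2. Its footprints were 25.8, 19.4 and 24.8 CPM in WT clones 1, 2 and 3, 17.2, 13.7 and 13.2 CPM in P131S clones 20, 24 and 63, and 11.3, 12.9 and 9.93 CPM in H137Y clones 16, 2 and 6. Clones of both mutants lay below WT, and the H137Y clones below the P131S clones, where 19.5% of all genes tested were apart in footprints. Footprints changed by -0.66 on the log2 scale in P131S (SE 0.17, edgeR adjusted p = 0.00927) and -1.03 in H137Y (SE 0.17, edgeR adjusted p = 0.000562), or 1.58-fold and 2.05-fold lower. The P131S call was lost without P131S clone 63 (log2 change -0.56, edgeR adjusted p = 0.0611), WT clone 1 (-0.56 and 0.0627) or WT clone 3 (-0.59 and 0.051).

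No factor was called in footprints in Rpl5+/- (0.0123% of all genes tested), Rpl11+/- (0.074%), Rpl22+/- (0.253%), Rpl22-/- (0.105%) or Rpl10 R98S (1.62%), nor between P131S and H137Y (4.17%) or Rpl22-/- and Rpl22+/- (0.00617%). At an unadjusted p under 0.05 edgeR counted 1 factor in Rpl5+/-, Rpl11+/-, Rpl22+/- and Rpl22-/-, 0 in R98S, 4 between the Rps15 genotypes and 3 between Rpl22-/- and Rpl22+/-. DESeq2 and limma voom called none of the 8 in these comparisons, except that DESeq2 called 2 between Rpl22-/- and Rpl22+/-. Runx1 footprints were 64.8, 47.1 and 54.0 CPM in Rpl22-/- clones 30, 649 and 776 and 96.1, 86.2 and 120.9 CPM in Rpl22+/- clones 13, 16 and 60. These groups did not overlap, as for 23.6% of all genes tested in footprints there, and the log2 difference of -0.87 (SE 0.17) did not pass (edgeR adjusted p = 0.109). Gata2 and Gata1 footprints were also apart there, with log2 differences of -0.73 and -0.59 (edgeR adjusted p = 0.17 and 0.242). Without Rpl22-/- clone 30 the 3 differences were -0.99 for Runx1, -0.73 for Gata2 and -0.73 for Gata1 (edgeR adjusted p = 0.15, 0.281 and 0.266), and 0 factors were called. Without Rpl22+/- clone 16, 1 factor was called in that comparison.

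Several factors with an RNA call had footprint values that did not pass. Spi1 footprints were 31.0 to 39.4 CPM in WT, 40.5 to 59.4 CPM in P131S and 42.8 to 72.2 CPM in H137Y, with no overlap, and log2 values of 0.51 and 0.60 (SE 0.21 each, edgeR adjusted p = 0.108 and 0.0668). Clones apart from WT in footprints were found for 36% of all genes tested in P131S and 30.4% in H137Y. Gata2 footprints gave -0.52 and -0.62 (SE 0.21 each, edgeR adjusted p = 0.0917 and 0.0581), and both mutants overlapped WT. Lmo2 had only 34 to 262 footprint counts per library, and its log2 value of 1.16 in H137Y had an SE of 0.52 (edgeR adjusted p = 0.165). For Runx1 in R98S the RNA change of -0.47 given above stood beside a footprint value of 0.06 (SE 0.17, edgeR adjusted p = 0.954). The direct test of the difference between the assays, given below as the ratio, did not pass.

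**Figure D4:**
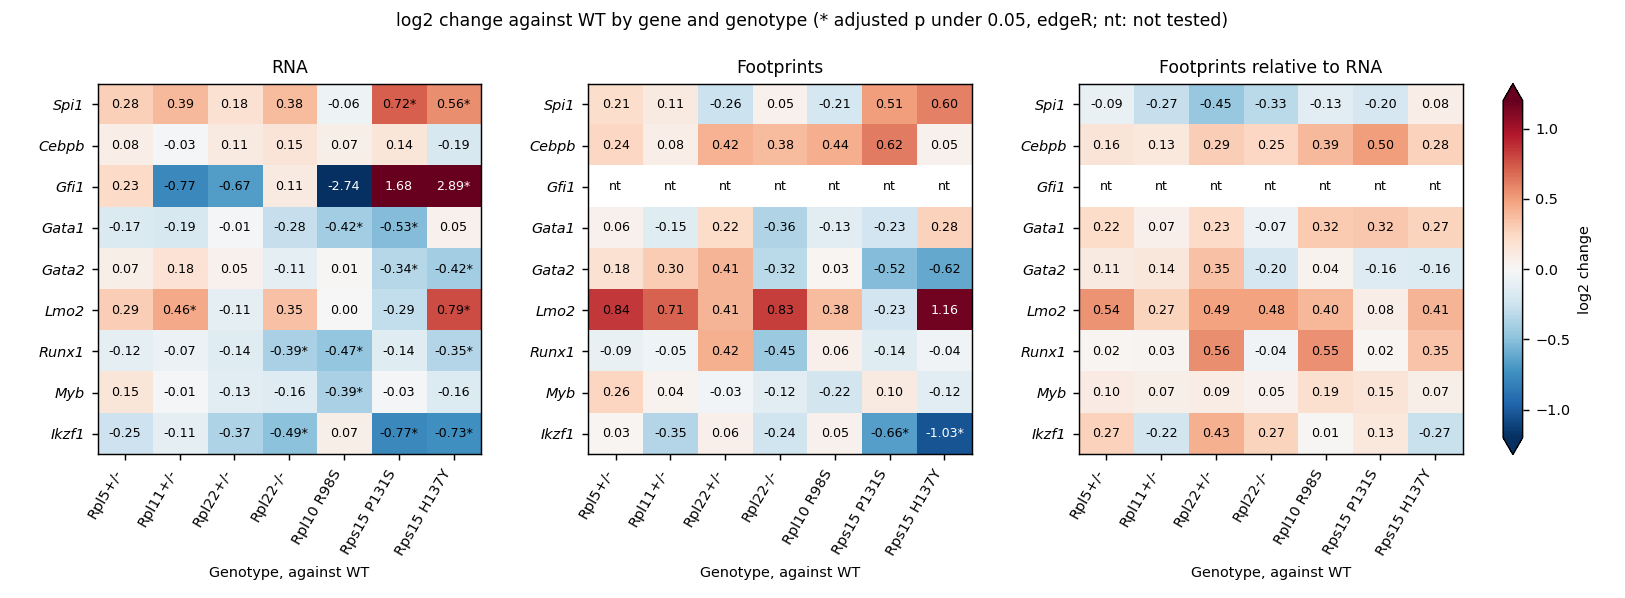
log2 change against WT of the 9 genes tested in RNA, for 7 genotypes, in RNA, in footprints and in footprints relative to RNA. Asterisks mark an edgeR adjusted p under 0.05 and nt a gene not tested, and the colour scale ends at 1.2 in either direction. RNA holds 16 asterisks over the 7 genotypes, footprints 2, both for Ikzf1, and the ratio none.

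The ratio of footprints to RNA is a measure of ribosome occupancy per messenger. No change of it was called for any of the 8 tested factors in the 9 comparisons. A fit of only the 2 genotypes called 1 factor in R98S, and leaving out 1 clone at a time gave 0 to 1 between the Rpl22 genotypes. The share of all genes called was 0% in Rpl5+/-, 0% in Rpl11+/-, 0.00828% in Rpl22+/-, 0.0414% in Rpl22-/-, 0.364% in R98S, 5.39% in P131S, 4.28% in H137Y, 1.18% between the Rps15 genotypes and 0% between the Rpl22 genotypes. DESeq2 and limma voom also called 0, and at an unadjusted p under 0.05 edgeR counted 1 factor in Rpl22+/-, 1 in R98S and 2 between Rpl22-/- and Rpl22+/-. With clone added to the model as a block, since the 2 libraries of a clone come from 1 lysate, 0 were called in every comparison.

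**Figure D5:**
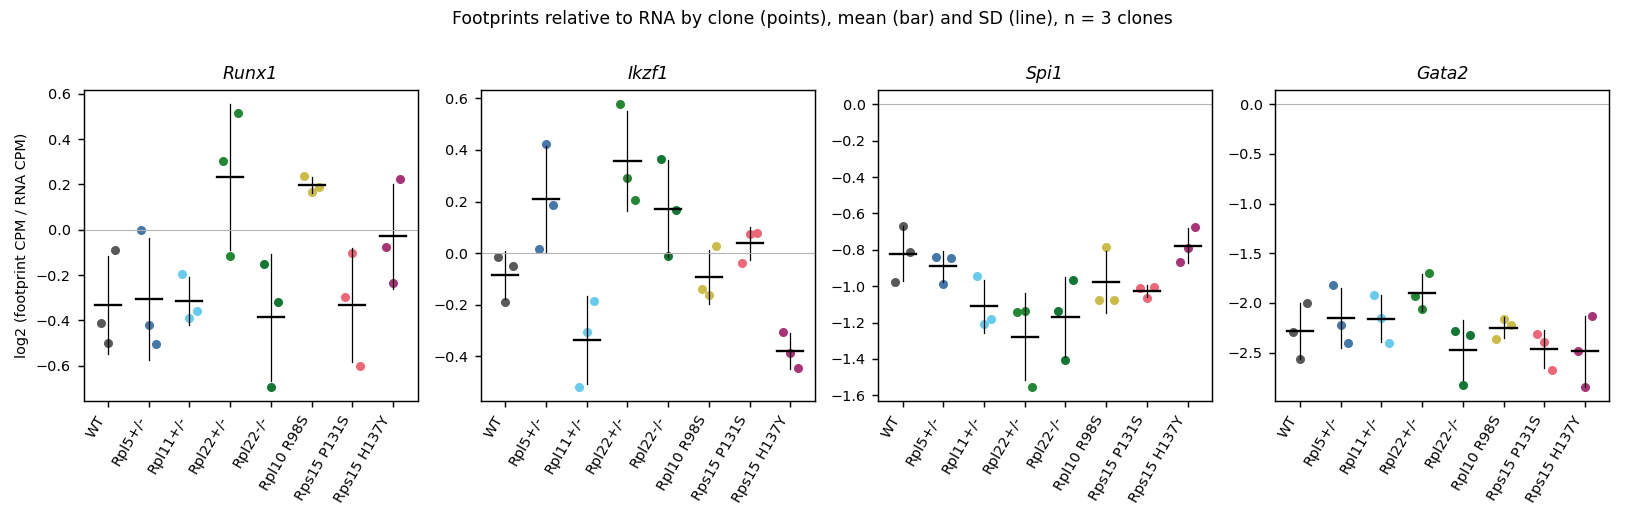
log2 of footprint CPM over RNA CPM for Runx1, Ikzf1, Spi1 and Gata2, by genotype. Points are clones, bars the mean and lines the SD of 3 clones. For Runx1 the 3 Rpl10 R98S clones lie at 0.17 to 0.24, above the WT clones at -0.50 to -0.09, and for Ikzf1 the Rps15 H137Y clones lie below the P131S clones.

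Over the 8 genotypes together, the ratio of Runx1 passed the F test (edgeR adjusted p = 0.0494, with 9.97% of all genes passing). Its log2 ratio was -0.41, -0.50 and -0.09 in WT clones 1, 2 and 3, 0.24, 0.17 and 0.19 in R98S clones A29, A30 and A34, 0.30, -0.12 and 0.51 in Rpl22+/- clones 13, 16 and 60, and -0.15, -0.69 and -0.32 in Rpl22-/- clones 30, 649 and 776. The R98S clones lay above WT, where 21.7% of all genes tested had clones apart in either direction, and 1 Rpl22+/- clone overlapped WT. The change of the ratio was 0.55 in R98S (SE 0.19, edgeR adjusted p = 0.26) and 0.56 in Rpl22+/- (SE 0.19, edgeR adjusted p = 0.31). Rpl22-/- minus Rpl22+/- was -0.60 (SE 0.19, edgeR adjusted p = 0.309), and -0.70 without Rpl22-/- clone 30 (edgeR adjusted p = 0.358). Without a count filter the F test for Runx1 gave an edgeR adjusted p of 0.0749. With the clone as a block it gave 0.0359, and Ikzf1 passed as well (adjusted p = 0.0134 with the block, 0.179 without it, edgeR).

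Ikzf1 had log2 ratios of -0.31, -0.39 and -0.45 in H137Y clones 16, 2 and 6 and -0.04, 0.08 and 0.08 in P131S clones 20, 24 and 63, with WT at -0.19 to -0.01. The H137Y clones lay below both other groups, and 25.8% of all genes tested had H137Y clones apart from WT, 18.3% apart from P131S. The change against WT was -0.27 in H137Y (SE 0.22, edgeR adjusted p = 0.618) and 0.13 in P131S (SE 0.22, edgeR adjusted p = 0.832). For Myb the 24 clones lay within 0.001 and 0.35 on the log2 scale. For Cebpb the range was wider, from -2.76 in Rpl5+/- clone 80 to -1.09 in P131S clone 20.

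The partners and relatives of these factors were followed in a list of 39 genes, of which 35 were tested in RNA. In P131S 15 rose and 8 fell, and in H137Y 14 rose and 8 fell. These are 42.9% and 22.9% of the list in P131S and 40% and 22.9% in H137Y, beside 23.7% and 23.4% and 21% and 20% of all genes, with median log2 changes of 0.00 and 0.09 beside -0.01 and 0.01 over all genes. Gfi1b, the relative of Gfi1 in erythroid and megakaryocyte cells, fell from 44.2 CPM ± 5.71 (SD, n = 3) in WT to 17.99 ± 2.56 in P131S and 28.4 ± 3.07 in H137Y (log2 changes -1.30 and -0.64, edgeR adjusted p = 4.1e-08 and 8.22e-05). Cebpg, a C/EBP relative of the amino acid stress response, fell from 97.7 CPM ± 2.55 in WT to 46.6 ± 2.65 in P131S and 46.9 ± 4.97 in H137Y (log2 changes -1.07 and -1.06, edgeR adjusted p = 1.03e-07 and 7.43e-08). Ddit3, which encodes the stress factor CHOP, fell as well (-2.86 and -2.94, edgeR adjusted p = 1.89e-06 and 1.75e-06). These 3 genes were also called lower outside Rps15. Cebpg fell in Rpl11+/-, Rpl22+/-, Rpl22-/- and R98S (-0.635, -0.52, -0.43 and -0.52, edgeR adjusted p = 0.000388, 0.00314, 0.0103 and 0.00166). Gfi1b fell in Rpl22-/- and R98S (-0.50 and -0.62, edgeR adjusted p = 0.00779 and 0.00078), and Ddit3 in R98S (-1.25, edgeR adjusted p = 0.00962). The Rpl22-/- values include clone 30. Cebpe, the C/EBP factor of late granulocytes, rose from 30.5 CPM ± 1.70 to 73.0 ± 22.1 in P131S and 77.9 ± 60.6 in H137Y (1.26 and 1.35, edgeR adjusted p = 0.017 and 0.013).

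Between the 2 Rps15 genotypes 8 of these 35 genes were called, 7 lower in P131S (20% of the list, 12.6% of all genes) and 1 higher (2.86%, 12.6%). Zfpm1, which encodes the GATA cofactor FOG1, was 371 CPM ± 55.8 in WT, 683 ± 73.0 in H137Y and 368 ± 20.1 in P131S (P131S minus H137Y -0.89, edgeR adjusted p = 1.73e-06). Tal1, the partner of LMO2, was 229 CPM ± 25.6 in H137Y and 136.7 ± 19.2 in P131S (-0.74, edgeR adjusted p = 8.26e-06), and Gfi1b was lower in P131S by -0.66 (edgeR adjusted p = 0.000209). The other genes lower in P131S were Cbfa2t3, Cbfa2t2, Ep300 and Chd4, and Mbd3 was higher. Ldb1, Lyl1, Tcf3 and Ssbp3, which also encode members of LMO2 complexes, did not pass (log2 differences -0.09, -0.02, 0.16 and -0.08, edgeR adjusted p = 0.426, 0.865, 0.117 and 0.502). These 9 genes were picked out after their values were seen. Zfpm1 was also higher than WT in Rpl11+/- (log2 change 0.57, edgeR adjusted p = 0.000811), with 7 of the 35 higher and 1 lower there (5.73% and 6.05% of all genes). In the other comparisons the list had 4 higher and 4 lower in R98S (6.82% and 6.03% of all genes), 1 and 3 in Rpl22-/- (1.47% and 3.8%; 0 and 2 without clone 30), 0 and 1 in Rpl22+/- (1.08% and 2.82%) and 0 called in Rpl5+/- or between the Rpl22 genotypes.

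Some partners had called changes of the ratio. In P131S 1 of 35 rose (2.26% of all genes) and 5 fell (3.13%), and in H137Y 0 rose (1.58%) and 5 fell (2.7%). Runx3, the relative of Runx1 in T and natural killer cells, fell in the ratio by 1.93 on the log2 scale in P131S (SE 0.31, edgeR adjusted p = 0.00016) and by 1.81 in H137Y (SE 0.31, edgeR adjusted p = 0.000431). Crebbp, a histone acetyltransferase that many of these factors recruit, fell in the ratio by 1.07 and 0.78 (edgeR adjusted p = 0.00128 and 0.0214), while its RNA rose by 0.64 and 0.80 (edgeR adjusted p = 0.00101 and 0.000152). Tal1 rose in the ratio in P131S by 0.55 (edgeR adjusted p = 0.0198).

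A second list held 33 other transcription factors of blood cells, of which 21 were tested in RNA. In P131S 0 rose and 13 fell (61.9% of the list, beside 23.4% of all genes), with a median log2 change of -0.70. In H137Y 6 rose and 9 fell (28.6% and 42.9%, beside 21% and 20%), with a median of -0.27. Id2 and Id1, which encode inhibitors of E-protein factors, fell in P131S (log2 changes -1.58 and -1.44, edgeR adjusted p = 2.31e-05 and 0.00143), and Id2 fell in H137Y (-1.21, edgeR adjusted p = 0.000307). Nfil3, a basic leucine zipper factor, fell in H137Y (-1.33, edgeR adjusted p = 0.000185). Klf1, the erythroid factor that is also on the marker list, was 30.7 CPM ± 1.19 in H137Y and 12.1 ± 2.59 in P131S (P131S minus H137Y -1.34, edgeR adjusted p = 8.19e-05). In H137Y Pou2f2 and Ets1 were among the genes that rose (1.43 and 4.61, edgeR adjusted p = 0.000226 and 0.00294), Ets1 from 0.0347 CPM to 0.98 ± 1.03. Pou2f2 also rose in Rpl11+/- and R98S (1.43 and 0.95, edgeR adjusted p = 0.00204 and 0.0228). Id2 and Nfil3 fell in R98S (-0.98 and -0.76, edgeR adjusted p = 0.008 and 0.0344). Nfil3 fell in Rpl11+/- (-0.71, edgeR adjusted p = 0.0486) and Id1 in Rpl22+/- (-1.16, edgeR adjusted p = 0.049).

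Of the marker lists, 11 of 19 tested myeloid markers rose and 0 fell in P131S (57.9% higher, beside 23.7% of all genes), and 14 rose and 2 fell in H137Y (73.7% and 10.5%, beside 21% and 20%), with median log2 changes of 1.26 and 2.91. Only 19 of the 24 markers passed the filter on low counts. Some, such as Ctsg and Cybb, had medians of 0.145 and 0.567 CPM over all RNA libraries. Such markers may have passed through the Rps15 clones, as Gfi1 did, so these shares are a description. Ctsg, which encodes the granule protease cathepsin G, rose to 6.82 CPM ± 8.22 in P131S and 11.9 ± 9.95 in H137Y from 0.166 ± 0.287 in WT (5.31 and 6.12, edgeR adjusted p = 0.00416 and 0.00188). Cybb, an oxidase subunit of phagocytes, rose in H137Y (5.39, edgeR adjusted p = 0.00129), while Fcer1g and Cd68 fell there (-0.62 and -1.28, edgeR adjusted p = 0.000801 and 0.00526). Of 10 tested erythroid and megakaryocyte markers 5 fell in P131S (23.4% of all genes fell) and 5 rose in H137Y (21% of all genes rose). Itga2b fell in P131S and rose in H137Y (-0.86 and 0.54, edgeR adjusted p = 3.99e-05 and 0.00346). Mcpt8, a basophil protease, rose in both (6.87 and 7.24, edgeR adjusted p = 0.000721 and 0.000583). Its level was near 0 in WT (0.118 CPM ± 0.176) and uneven between mutant clones (14.5 ± 20.1 in P131S and 18.7 ± 19.5 in H137Y). Of 12 mast cell and basophil markers 4 were tested, with the same limit from the filter. Of these, 3 were higher in P131S (23.7% of all genes) and 1 in H137Y (21%), while Kit, the stem cell factor receptor, had no RNA count in any library.

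The genes whose RNA pattern over the 24 RNA libraries was most like that of each called factor were found by Pearson r of log2(CPM + 0.5), given as a description since clones of a genotype share its level. For Spi1 they were Fes, a tyrosine kinase gene of myeloid cells (r = 0.917), and Srgn, which encodes the granule proteoglycan serglycin (r = 0.898). For Ikzf1 they were Socs5 and Cstf1 (r = 0.869 and 0.866), and for Lmo2 Hemgn, which encodes hemogen of blood progenitors, and Rasgrp3 (r = 0.897 and 0.874). Gata1 was most like Plac1 and Stx2 (r = 0.813 and 0.795), and Gata2 like Gga2 and Dpf2 (r = 0.852 and 0.843). Runx1 was most like Acot11 and Eif1b (r = 0.767 and 0.759), and Myb like Far1 and B3gnt2 (r = 0.876 and 0.852). Gfi1, mostly near 0, was most like Thbs1 and Cybb (r = 0.965 and 0.955).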

How the data were processed

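RNA-seq and ribosome footprint libraries of 24 Ba/F3 clones (3 clones of each of 8 genotypes) were compared. The authors deposited 1 table of estimated counts per Ensembl gene, not normalized, in which 15.97% of values are not whole; they were rounded here. The submitters' processing notes name STAR 2.6.1d, Salmon 1.4.0, DESeq2 1.30 and GRCm38, without saying which step made the table, and the feature counted and the use of strand are not given in the sources used here. The lists of genes and the 10 genes themselves were chosen with earlier results of these data known.

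Genes passing filterByExpr (about 10 counts in 3 libraries, 15 in all) were tested with the edgeR quasi-likelihood method (edgeR 4.0.16, limma 3.58.1, R 4.3.3; robust dispersions, trimmed means of M values) on all 24 libraries of an assay, which left 12814 genes in RNA, 16217 in footprints and 12074 for the ratio, tested as the interaction of assay and genotype over all 48. Tests are two-sided, adjusted by Benjamini-Hochberg within each comparison over all genes, with a threshold of 0.05, and SE is the log2 change divided by the root of F. The smallest exact permutation p that 3 and 3 clones allow for 1 gene is 0.1. Alternatives were limma voom, DESeq2 1.42.0, another scaling, no count filter, a fit of 2 genotypes, leaving out each clone and a clone block. The analysis code was tested on simulated data. The 2 libraries of each clone deviated together from their genotype means (24 of 24 correlations over 0.1, from 0.171 to 0.708 over 7141 genes, against -0.607 to 0.151 between different clones), as the shared lysate in the labels states, so they are paired. Besides the 10 genes, up to 3 genes per direction with the largest change among those called with clones apart from the compared group are named from each list, plus the 2 genes of most similar RNA pattern.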

Additional observations from a re-analysis of the deposited data

Results flagged for a closer look

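RNA of 2 of the factors differed between the P131S and H137Y clones in a direct test. Rps15 RNA also differed between clones of 1 label, as given above, and its part in these differences was not tested. Gata1 RNA was lower in P131S by a log2 difference of -0.58 (edgeR adjusted p = 0.00285), with 37.6 to 44.5 CPM in the 3 P131S clones and 56.7 to 69.5 CPM in the 3 H137Y clones. Lmo2 RNA was lower in P131S by -1.08 (edgeR adjusted p = 3.47e-05), with 7.83 to 11.1 CPM against 18.04 to 21.9 CPM. Each was lower in 3 of 3 P131S clones than in 3 of 3 H137Y clones. Calls were as common among all genes tested in this comparison, at 25.2%, as among the factors, at 2 of 9. Clones of the 2 genotypes were apart for 29.8% of all genes tested.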

How the results depend on the processing

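None of the called changes of single factors reversed under any alternative. The 18 RNA calls were kept by limma voom and DESeq2, 17 by another scaling (RLE), 16 without a count filter and 17 in a fit of only the 2 genotypes, and 91 of 108 fits that left out 1 clone kept them. These tallies include the Gfi1 call in H137Y, kept in 11 of 11 alternatives, which supports no count over the factors. The 2 footprint calls were kept in all but 3 of 12 such fits. Counts of called factors that moved by more than 1.5 times were these. In a fit of only the 2 genotypes, 1 was called in RNA in Rpl5+/- and 1 in Rpl22+/- (0 before), 4 in Rpl22-/- (2 before) and 1 in the ratio of R98S (0 before). DESeq2 called 2 in RNA of Rpl11+/- (1 before), 3 in footprints of H137Y (1 before) and 2 in footprints between Rpl22-/- and Rpl22+/- (0 before). Limma voom called 2 in footprints of H137Y. Without a count filter there were 0 in RNA of Rpl11+/-, 2 in footprints of H137Y, 1 in footprints between the Rpl22 genotypes and 0 in the F test of the ratio (1 before). Scaling by RLE left 1 in RNA of Rpl22-/-. Smaller moves were 3 calls by DESeq2 in RNA between the Rps15 genotypes (2 before) and, without a count filter, 2 in RNA of R98S (3 before) and 5 in the F test of footprints (4 before). With the clone as a replicate block the F test of the ratio passed for 2 factors, and the block changed no other call; this alternative for the F test was added after seeing the data.

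Leaving out 1 clone at a time gave 0 to 2 calls in RNA of Rpl11+/-, 1 in each fit of Rpl22-/-, 1 to 3 in R98S (1 without clone A30) and 2 to 4 between the Rps15 genotypes (4 without H137Y clone 6 or P131S clone 20). In footprints it gave 0 to 1 in P131S, 1 to 2 in H137Y and 0 to 1 between the Rpl22 genotypes, and in the ratio 0 to 1 between the Rpl22 genotypes, in both cases 1 without Rpl22+/- clone 16. The cause of these shifts was not tested. Counts were few for Gfi1, at 39 or fewer per library, and for Lmo2 in footprints, at 34 to 262, which limits the precision of both.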
